A study of Mus musculus with 18 samples.

Results

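The genes described here are the mouse genes with a symbol of the form Gpr and a number, which name G protein-coupled receptors that had no known ligand when they were found, together with a few membrane proteins that were given the same kind of name. Of 63 such genes in the deposited TPM table, with Gpr183 set aside, 42 reached a mean of 0.5 CPM, which scales counts to a common library total, in 1 or more of the 6 groups of dendritic cells out of 24614 genes in the table, and 39 of these are described here as the members. The members were chosen by their measured levels, so levels are given as a description and carry no test. G protein-coupled receptors sit in the membrane and pass a signal from a ligand outside the cell to heterotrimeric G proteins inside it. Several of the Gpr genes have since been matched to simple ligands: protons (Gpr4, Gpr65), lysophosphatidylserine (Gpr34, Gpr174), lysophosphatidylinositol (Gpr55), medium-chain fatty acids (Gpr84). In dendritic cells and other leukocytes such receptors are known for setting position, survival and the response to acid, lipids and nutrients.

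The libraries were made from conventional dendritic cells (cDC) of C57BL/6 mouse spleen, which present antigen to T cells. CD11c+ MHCII+ cells of ADAM10 KO and WT animals were separated by sorting into 3 populations: CD4+ cDC2, cDC2 with neither CD4 nor CD8 (CD4-CD8- cDC2), and cDC1 with CD8. Each of the 6 groups has 3 RNA-seq libraries, 18 in all. ADAM10 is a membrane protease that sheds surface proteins and makes the first ligand-induced cut in Notch receptors. The promoter or Cre behind the knockout, the exons removed, and the age, sex and pooling of animals are not given in the sources used here.

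Total estimated counts ran between 12358884 and 19557469 per library. Adam10 itself had 41.6 to 45.9 CPM in KO and 80.6 to 129.5 CPM in WT CD4+ cDC2, 41.7 to 47.5 CPM in KO and 88.3 to 138.4 CPM in WT CD4-CD8- cDC2, and 28.7 to 36.4 CPM in KO and 57.0 to 99.0 CPM in WT CD8+ cDC1, so KO libraries were below WT libraries in each population. From here on, CPM refers to the library size after TMM scaling, and TPM, which also divides by transcript length, is used where levels of different genes are set side by side. The sorts were checked against markers. The summed level of 10 cDC1 markers was 10120 to 11150 CPM in KO and 8301 to 9714 CPM in WT CD8+ cDC1, against at most 2157 CPM in any cDC2 library. The summed level of 9 cDC2 markers was 2673 to 3590 CPM in KO and 1554 to 2573 CPM in WT cDC2, against at most 294.3 CPM in any CD8+ cDC1 library. These are bulk samples, so fewer cells of a type and less RNA per cell cannot be told apart.

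The 21 Gpr genes below the level had highest group means between 0.0195 and 0.469 CPM, with a median of 0.146 CPM. Just outside the limit were Gpr61 at 0.421, Gpr52 at 0.437 and Gpr152 at 0.469 CPM of the column total. The members nearest above it were Gpr149 at 0.513, Gpr15 at 0.58 and Gpr137c at 0.663 CPM. Of the 39 members, 24 were at the limit or above in all 6 groups and 3 in 1 group. In the GENCODE M21 annotation 36 are protein-coding. Gpr31a is a processed pseudogene, Gpr31c a transcribed processed pseudogene and Gpr141b, despite its name, a lincRNA.

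Levels per length spread widely among the members. The highest group mean was that of Gpr141b, with 137.3 TPM in KO and 127.0 TPM in WT CD8+ cDC1. Next came Gpr35, an orphan-class receptor for which kynurenic acid and lysophosphatidic acids have been proposed as ligands, with 60.6 TPM in KO and 133.1 TPM in WT CD4+ cDC2. Gpr132, Gpr65, Gpr34 and Gpr171 were among those that followed. In CPM, 26 members reached a mean of 5 in some group, 6 of them 100, and 13 stayed under 5 in every group. In KO cells the highest mean among the populations was in CD8+ cDC1 for 17 members, in CD4+ cDC2 for 10 and in CD4-CD8- cDC2 for 12. In WT cells these counts were 14, 17 and 8 in the same order of populations.

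**Figure D1:**
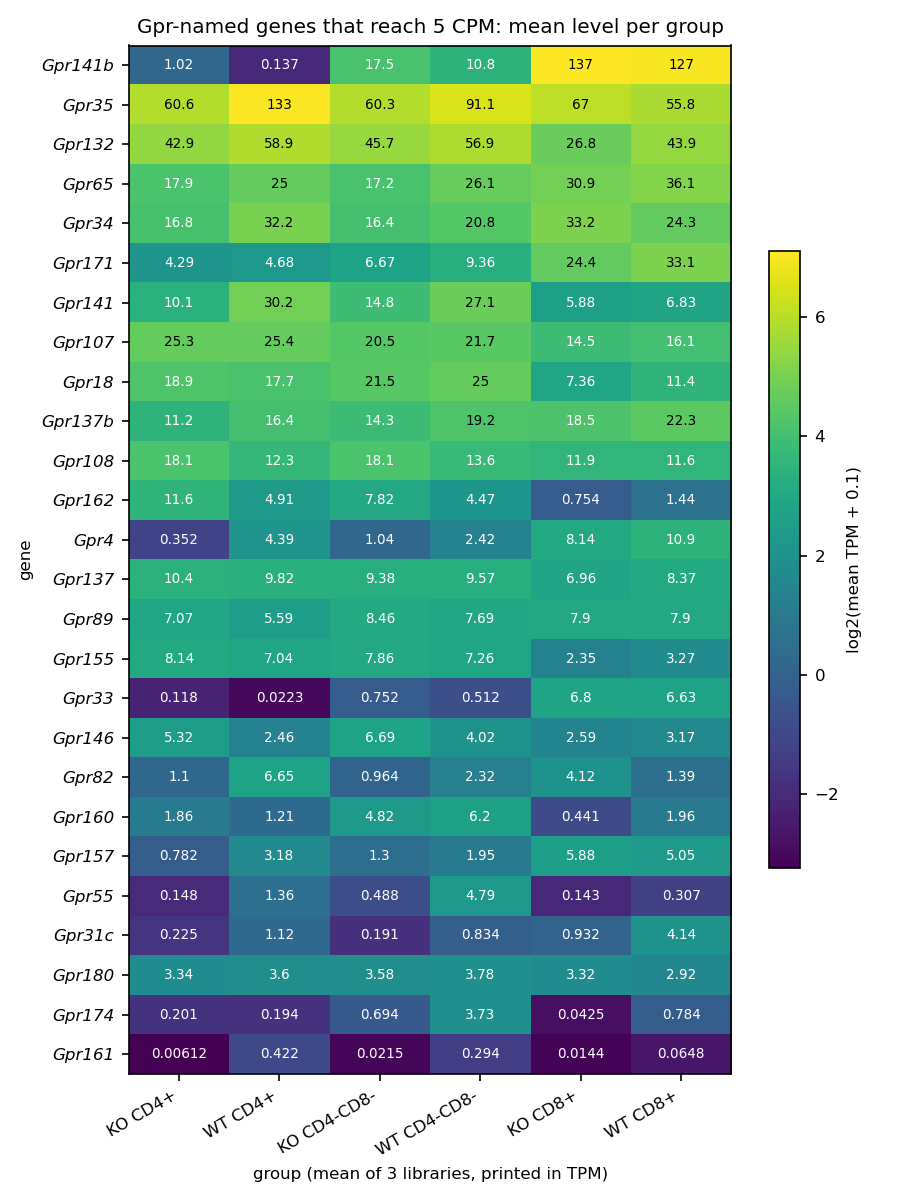
Mean TPM of 3 libraries in each of the 6 groups for the 26 members that reached 5 CPM in a group, with KO left of WT in each population and colour on a log2(TPM + 0.1) scale. Gpr141b stands at 137.3 TPM in KO and 127.0 TPM in WT CD8+ cDC1 and at about 1 TPM or less in CD4+ cDC2, while Gpr180 stays between 2.92 and 3.78 TPM in the 6 groups.

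The first question is which members differed between ADAM10 KO and WT cells of the same population. Of the 39 members, 36 passed the filter on low counts. Gpr15, Gpr137c and Gpr149 did not and were not tested. A member that passed through 1 high group alone had to differ between groups, so the counts that follow are set beside the share of all 13381 genes tested and support nothing further. In CD4+ cDC2, 9 members were higher in KO and 12 lower, at an adjusted p under 0.05 in edgeR's quasi-likelihood test, while 35.1% of all genes were called there, 18.5% higher and 16.6% lower. In CD4-CD8- cDC2, 7 were higher and 10 lower, with 25.9% of all genes called, 14.6% higher and 11.3% lower. In CD8+ cDC1, 2 were higher and 6 lower, with 15.7% of all genes called, 7.01% higher and 8.68% lower. The median absolute log2 fold change of the tested members was 1.24, 0.78 and 0.41 in the same order of populations, against 0.30, 0.26 and 0.20 over all genes. Directions were mixed: the members' median log2 fold change was 0.04, -0.03 and -0.14, against 0.02, 0.02 and 0.00 over all genes.

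Among the 36 tested members, 29 were called in 1 or more of the KO against WT comparisons and 7 in none, where 46.2% of all genes were called in 1 or more. In both cDC2 populations 13 were called in the same direction, as were 19.1% of all genes. Gpr31c was lower in KO cells of all 3 populations, a pattern of 2.35% of all genes. Gpr34 and Gpr82 were lower in KO CD4+ cDC2 and higher in KO CD8+ cDC1, a pattern of 0.874% of all genes. Beside the 6 members lower in KO CD8+ cDC1 (Gpr18, Gpr31c, Gpr132, Gpr160, Gpr174, Gpr176), 9 cDC2 markers summed to 48.3 to 89.8 CPM in KO and 202.3 to 294.3 CPM in WT CD8+ cDC1, with 6 of the 9 lower, 1 higher and none without counts. In WT CD8+, CD4+ and CD4-CD8- cells, Gpr31c averaged 32.8, 8.84 and 5.66 CPM and Gpr176 1.63, 0 and 0.0216 CPM. In the same order Gpr18 averaged 28.5, 44.7 and 54.7 CPM and Gpr132 209.1, 286.8 and 238.4 CPM. Gpr160 averaged 3.48, 2.08 and 6.56 CPM and Gpr174 1.85, 0.681 and 11.4 CPM. The part of cDC2 cells in the 6 falls was not tested. On the TPM scale the median gene of the table was itself lower in KO, by a log2 difference of -0.13 in CD4+ cDC2, -0.25 in CD4-CD8- cDC2 and -0.19 in CD8+ cDC1 at a pseudocount of 0.1.

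**Figure D2:**
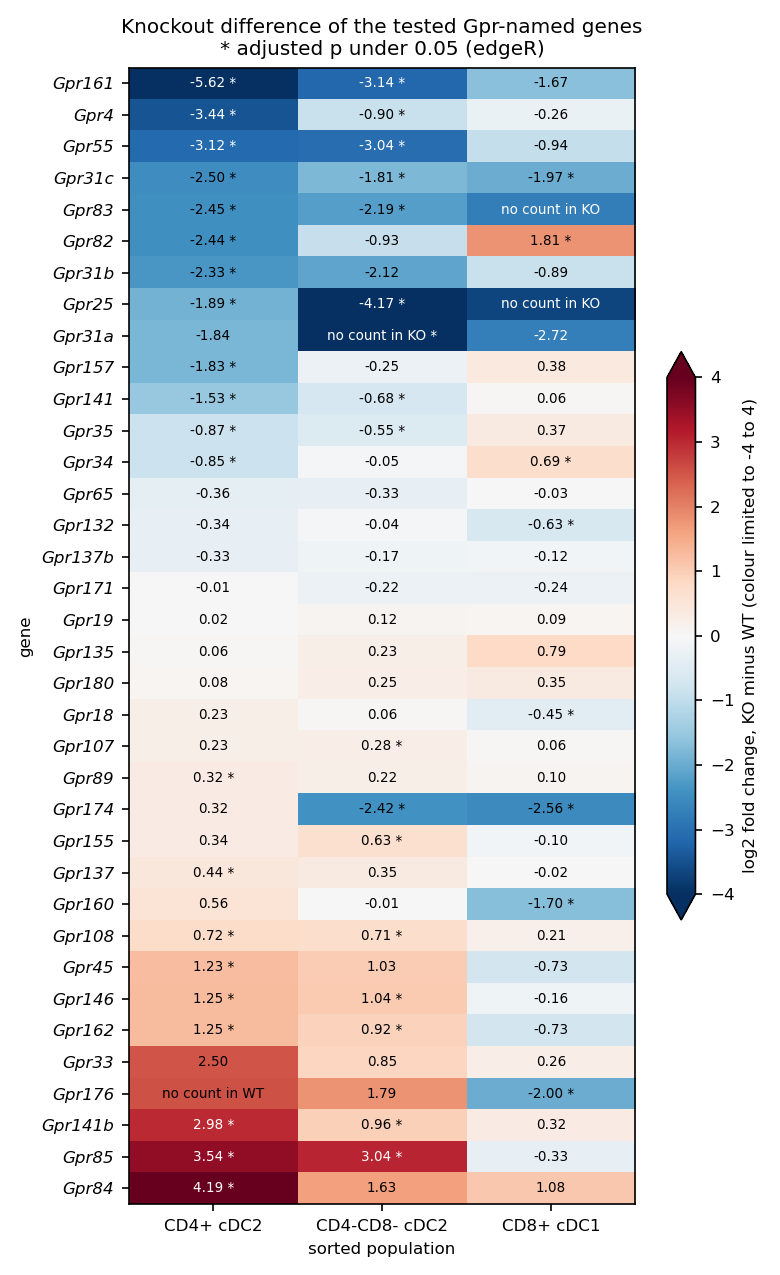
Log2 fold change of KO against WT for the 36 tested members in the 3 populations, ordered by the value in CD4+ cDC2, with a star where the adjusted p was under 0.05 and with the words "no count" where a group had none. CD4+ cDC2 holds most stars, with Gpr161 at -5.62 and Gpr4 at -3.44 at one end, and Gpr34 and Gpr82 change sign between CD4+ cDC2 and CD8+ cDC1.

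Start sites are shown for the members with the largest falls in KO CD4+ cDC2 at 5 CPM or more (Gpr161, Gpr4, Gpr55) and for the neighbours Gpr141 and Gpr141b, which went opposite ways. RefSeq windows on GRCm38.p6, running 250 bases before to 50 after an annotated start, were found for 32 of the 39 members. They were searched on both strands for 3 motifs: GTGGGAA for RBPJ, the DNA-binding partner of Notch, GAGGAAGT for the myeloid factor PU.1, and TGANTCA for AP-1. The RBPJ letters were in a window of 4 of the 32 member genes (Gpr19, Gpr137, Gpr137c, Gpr161), against 7.25% of all genes with a window. The PU.1 letters were in 4 (Gpr31b, Gpr55, Gpr137, Gpr137c), against 3.69% of all genes, and the AP-1 letters in 3 (Gpr15, Gpr35, Gpr146), against 8.97%. Capitals mark a motif match, read 5′ to 3′ on the strand of the gene. Overlaps between matches were not counted, and each window printed here holds at most 1. A match is a string of letters and not a shown binding site. The Gpr161 window printed is chr1:165302373-165302672, downstream of the annotated gene start at 165295789. It and the Gpr4 window, chr7:19212288-19212587, are on the plus strand. That of Gpr55 is chr1:85961006-85961305, of Gpr141 chr13:19824208-19824507 and of Gpr141b chr13:19732902-19733201, all 3 on the minus strand.
Gpr161: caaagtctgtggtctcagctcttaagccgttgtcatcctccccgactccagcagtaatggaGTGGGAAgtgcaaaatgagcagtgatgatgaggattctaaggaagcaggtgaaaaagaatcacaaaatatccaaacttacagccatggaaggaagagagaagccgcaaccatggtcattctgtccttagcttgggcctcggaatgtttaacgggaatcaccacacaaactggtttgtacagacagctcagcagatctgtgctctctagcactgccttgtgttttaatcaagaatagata
Gpr4: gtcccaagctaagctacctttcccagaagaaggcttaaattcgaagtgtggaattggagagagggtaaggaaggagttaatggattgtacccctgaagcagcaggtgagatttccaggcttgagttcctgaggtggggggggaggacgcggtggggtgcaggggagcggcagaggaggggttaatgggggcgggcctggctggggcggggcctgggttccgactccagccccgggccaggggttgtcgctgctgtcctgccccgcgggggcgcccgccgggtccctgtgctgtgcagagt
Gpr55: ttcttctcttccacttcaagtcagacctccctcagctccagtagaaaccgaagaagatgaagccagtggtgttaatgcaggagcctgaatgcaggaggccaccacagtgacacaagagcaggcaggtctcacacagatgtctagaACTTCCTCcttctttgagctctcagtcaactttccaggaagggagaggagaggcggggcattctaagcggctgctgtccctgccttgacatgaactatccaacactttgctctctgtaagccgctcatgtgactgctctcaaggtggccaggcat
Gpr141: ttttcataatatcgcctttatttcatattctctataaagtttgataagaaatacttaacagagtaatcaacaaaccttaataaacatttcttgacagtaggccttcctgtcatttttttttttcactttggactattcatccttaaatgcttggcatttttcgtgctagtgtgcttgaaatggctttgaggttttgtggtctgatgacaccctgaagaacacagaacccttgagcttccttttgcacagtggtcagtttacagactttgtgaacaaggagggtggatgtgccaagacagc
Gpr141b: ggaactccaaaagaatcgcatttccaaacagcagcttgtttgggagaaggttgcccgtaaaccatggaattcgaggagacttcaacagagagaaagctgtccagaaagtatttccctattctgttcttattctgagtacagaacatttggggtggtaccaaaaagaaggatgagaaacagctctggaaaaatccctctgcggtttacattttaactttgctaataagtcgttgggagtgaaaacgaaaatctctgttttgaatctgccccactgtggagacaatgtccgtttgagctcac
The Gpr4 window was 64.0% G and C, that of Gpr161 45.7%, that of Gpr55 52.3%, that of Gpr141 37.3% and that of Gpr141b 42.7%. Gpr161 has a second window, chr1:165295516-165295815, which spans the annotated gene start and has no match to the 3 motifs. Bases just after the start were found in a GENCODE transcript for the printed windows except that of Gpr55, and not for this second window.

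Among receptors that sense protons, Gpr4 (chr7:19212538-19224174), which raises cAMP in acid, was lower in both KO cDC2 populations. Gpr4 had 1.49, 3.53 and 2.15 CPM in KO CD4+ cDC2, against 28.1, 27.6 and 22.6 CPM in WT. In CD4-CD8- cDC2 it had 6.29, 8.29 and 5.21 CPM in KO and 9.61, 15.7 and 11.7 CPM in WT. CD8+ cDC1 held the most, with 49.8, 64.8 and 50.3 CPM in KO and 53.6, 72.4 and 71.1 CPM in WT. KO and WT libraries did not overlap in either cDC2 population and overlapped in CD8+ cDC1. The log2 fold change was -3.44 ± 0.26 in CD4+ cDC2 (SE, adjusted p = 3.68e-08), -0.90 ± 0.24 in CD4-CD8- cDC2 (adjusted p = 0.0113) and -0.26 ± 0.21 in CD8+ cDC1 (adjusted p = 0.467). The call in CD4-CD8- cDC2 was lost without WT library 2 (-0.72, adjusted p = 0.0551) or without KO library 3 (-0.76, adjusted p = 0.0575). The fall in CD4+ cDC2 exceeded that in CD4-CD8- cDC2 by -2.54 ± 0.36 (adjusted p = 0.000652) and that in CD8+ cDC1 by -3.19 ± 0.34 (adjusted p = 4.39e-06).

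Gpr65, an acid receptor that also raises cAMP, passed no KO against WT test. It averaged 62.7 CPM in KO and 80.4 CPM in WT CD4+ cDC2, 58.4 and 73.4 CPM in KO and WT CD4-CD8- cDC2, and 113.4 and 116.1 CPM in KO and WT CD8+ cDC1. The log2 differences were -0.36 ± 0.18, -0.33 ± 0.18 and -0.03 ± 0.17, and 24.7% of its exon bases are shared with the antisense gene Gm47566. Whether counting used strand is not given in the sources used here. Gpr132 (chr12:112850873-112868228), related to them in sequence, responds to oxidised fatty acids and lysophospholipids. It had 201.4, 218.0 and 258.2 CPM in KO CD4+ cDC2, against 339.4, 253.5 and 267.4 CPM in WT. CD4-CD8- cDC2 held 186.0, 255.3 and 252.4 CPM in KO, against 276.1, 221.3 and 217.7 CPM in WT. In CD8+ cDC1 it had 115.1, 139.3 and 149.6 CPM in KO and 241.5, 186.4 and 199.4 CPM in WT. Libraries overlapped in both cDC2 populations and were apart in CD8+ cDC1. There Gpr132 was lower in KO by -0.63 ± 0.16 on the log2 scale (adjusted p = 0.01). That call ended without WT library 1 (-0.52, adjusted p = 0.0577) or without KO library 1 (-0.53, adjusted p = 0.0548).

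The receptors for lysophospholipids and related lipids also went separate ways. Gpr34 (chrX:13632089-13640858), a lysophosphatidylserine receptor known in microglia and mast cells, had 44.4, 30.6 and 46.9 CPM in KO CD4+ cDC2, against 68.2, 78.5 and 73.1 CPM in WT. CD4-CD8- cDC2 gave 41.7, 40.2 and 35.9 CPM in KO and 34.1, 50.6 and 37.8 CPM in WT. CD8+ cDC1 gave 83.1, 91.2 and 92.8 CPM in KO and 49.2, 60.1 and 56.6 CPM in WT. KO libraries were thus all below WT in CD4+ cDC2, among them in CD4-CD8- cDC2, and all above them in CD8+ cDC1. Log2 fold changes came to -0.85 ± 0.15 (adjusted p = 0.000264), -0.05 ± 0.15 (adjusted p = 0.84) and 0.69 ± 0.15 (adjusted p = 0.00389). On log2(TPM + 1) the last was 0.43 with an adjusted p of 0.0914. The knockout difference in CD4+ cDC2 was below that in CD8+ cDC1 by -1.54 ± 0.21 (adjusted p = 5.54e-05).

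Gpr82, an orphan receptor, starts 20504 bases after the end of Gpr34 on the same strand (chrX:13661363-13667433), and both lie inside Cask on the opposite strand without sharing exon bases with it. Gpr82 had 1.88 to 6.63 CPM in KO and 18.0 to 23.5 CPM in WT CD4+ cDC2, 1.38 to 5.64 CPM in KO and 4.47 to 7.75 CPM in WT CD4-CD8- cDC2, and 11.1 to 18.7 CPM in KO and 3.63 to 5.01 CPM in WT CD8+ cDC1. It therefore had the directions of Gpr34 in CD4+ cDC2 and in CD8+ cDC1, with libraries that did not overlap in either. Its log2 fold changes were -2.44 ± 0.42 (adjusted p = 0.000226), -0.93 ± 0.44 (adjusted p = 0.14) and 1.81 ± 0.42 (adjusted p = 0.00667). Without KO library 1 the value in CD4+ cDC2 was -3.18. The difference between the CD4+ and the CD8+ knockout effect was -4.25 ± 0.59 (adjusted p = 6.8e-05), and -4.99 without that library. The CD4-CD8- effect was below the CD8+ effect by -2.74 ± 0.61 (adjusted p = 0.00652), and by -3.51 without KO CD4-CD8- library 1.

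Gpr55, the lysophosphatidylinositol receptor (chr1:85938318-85961007), and Gpr174, a lysophosphatidylserine receptor of lymphocytes (chrX:107255878-107296769), were both lower in KO CD4-CD8- cDC2. Gpr55 had 0.854 to 1.72 CPM in KO and 6.34 to 14.9 CPM in WT CD4+ cDC2, 1.77 to 6.21 CPM in KO and 18.3 to 42.8 CPM in WT CD4-CD8- cDC2, and 0.767 to 1.82 CPM in KO and 2.14 to 2.42 CPM in WT CD8+ cDC1. Its groups were apart in all 3 populations. The log2 fold change was -3.12 ± 0.47 (adjusted p = 6.48e-05) in CD4+ and -3.04 ± 0.42 (adjusted p = 5.21e-05) in CD4-CD8- cDC2, and -0.94 ± 0.53 (adjusted p = 0.275) in CD8+ cDC1. Gpr174 had 0.442 to 1.22 CPM in KO and 0.457 to 0.801 CPM in WT CD4+ cDC2, 1.15 to 2.76 CPM in KO and 8.26 to 17.6 CPM in WT CD4-CD8- cDC2, and 0 to 0.65 CPM in KO and 1.28 to 2.62 CPM in WT CD8+ cDC1. The groups overlapped in CD4+ cDC2 alone. Its falls were -2.42 ± 0.51 (adjusted p = 0.00203) in CD4-CD8- cDC2 and -2.56 ± 0.65 (adjusted p = 0.0126) in CD8+ cDC1. The CD8+ value was -2.22 with an adjusted p of 0.0608 without WT library 1, and -3.71 without KO library 3.

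Markers of T cells were lower in KO CD4-CD8- cDC2 and, for 5 of 13, in KO CD8+ cDC1. In KO CD4+ cDC2, where Gpr55 fell as well, 1 of 13 was lower. Summed over 13 T cell markers, the level was 19.3 to 68.3 CPM in KO and 197.0 to 399.3 CPM in WT CD4-CD8- cDC2, with 13 of 13 lower in KO. It was 7.46 to 21.5 CPM in KO and 23.0 to 59.1 CPM in WT CD8+ cDC1, with 5 of 13 lower and 0 higher. In CD4+ cDC2 it was 19.96 to 30.2 CPM in KO and 26.5 to 30.5 CPM in WT, with 3 higher and 1 lower. Cd5 made up most of that WT sum, with means of 6.81 CPM in KO and 20.1 CPM in WT. Every other T cell marker had a higher mean in KO there. The 12 NK cell markers summed to 313.0 to 391.6 CPM in KO and 553.5 to 1060.0 CPM in WT CD4-CD8- cDC2, with 9 lower, and to 95.9 to 135.8 CPM in KO and 161.8 to 210.8 CPM in WT CD8+ cDC1, with 7 lower and 0 higher. In CD4+ cDC2 they summed to 123.1 to 167.6 CPM in KO and 114.1 to 135.2 CPM in WT, with 1 higher. Klrk1 and Klrd1 made up most of both CD4+ sums. They averaged 66.3 and 83.1 CPM in KO and 28.2 and 91.3 CPM in WT there. In CD4-CD8- cDC2 the same genes averaged 127.3 and 158.1 CPM in KO and 136.2 and 163.2 CPM in WT. Every NK marker had a lower mean in KO CD4-CD8- cDC2. Ncr1 averaged 7.24 CPM in KO and 51.8 CPM in WT there, and Prf1 5.83 and 29.0 CPM. No T cell marker was without counts in all libraries of a group. The NK marker Klra8 had no count in KO CD4+ cDC2. Of 12 tested B cell markers, 2 were higher and 4 lower in KO CD4-CD8- cDC2, and 0 higher and 6 lower in KO CD8+ cDC1. In KO CD4+ cDC2, 3 were higher and 3 lower. The part of T, NK and B cells in the falls of Gpr174 and Gpr55 was not tested.

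Gpr18 (chr14:121911253-121915781), an orphan-class receptor with lipid ligands proposed, lies inside Ubac2 on the opposite strand with no shared exon bases. It had 53.5, 46.9 and 56.6 CPM in KO CD4+ cDC2, against 38.6, 43.7 and 51.7 CPM in WT. CD4-CD8- cDC2 held 61.0, 55.0 and 54.7 CPM in KO and 56.5, 49.9 and 57.7 CPM in WT, and CD8+ cDC1 held 21.8, 20.2 and 20.7 CPM in KO and 26.7, 27.8 and 31.1 CPM in WT. KO and WT overlapped in both cDC2 populations and were apart in CD8+ cDC1, where the log2 fold change was -0.45 ± 0.11 (adjusted p = 0.00906). The CD4+ effect was above the CD8+ effect by 0.68 ± 0.15 (adjusted p = 0.00339).

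Among receptors tied to metabolites, Gpr35 (chr1:92950865-92986391) was lower in both KO cDC2 populations. It had 156.2, 111.1 and 120.2 CPM in KO CD4+ cDC2, against 259.0, 233.7 and 217.5 CPM in WT. CD4-CD8- cDC2 gave 128.6, 99.1 and 87.4 CPM in KO, against 145.2, 166.5 and 149.3 CPM in WT. CD8+ cDC1 gave 158.3, 154.8 and 138.7 CPM in KO and 114.3, 117.9 and 117.0 CPM in WT. KO libraries were all below WT in the cDC2 populations and all above WT in CD8+ cDC1. KO against WT gave a log2 fold change of -0.87 ± 0.13 (adjusted p = 7.35e-05), -0.55 ± 0.13 (adjusted p = 0.00604) and 0.37 ± 0.13 (adjusted p = 0.0734). On log2(TPM + 1) the CD4-CD8- value was -0.57 with an adjusted p of 0.101. The CD4+ effect was below the CD8+ effect by -1.25 ± 0.19 (adjusted p = 0.000145). Of its 6 annotated transcripts, Gpr35-204 took 67.3 ± 10.2% of the TPM in KO and 70.8 ± 2.12% in WT CD4+ cDC2 (SD, n = 3).

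The Gpr31 genes on chromosome 17 were lower in KO where they passed. Gpr31c (chr17:13341241-13345880) had 1.44, 1.54 and 1.72 CPM in KO CD4+ cDC2, against 7.31, 8.67 and 10.5 CPM in WT. CD4-CD8- cDC2 gave 1.66, 1.54 and 1.61 CPM in KO and 4.23, 5.63 and 7.12 CPM in WT. CD8+ cDC1 gave 7.17, 7.53 and 10.4 CPM in KO and 32.3, 27.3 and 38.7 CPM in WT. KO and WT were apart in each population. The falls were -2.50 ± 0.22 (adjusted p = 2.1e-07), -1.81 ± 0.23 (adjusted p = 2.74e-05) and -1.97 ± 0.19 (adjusted p = 2.06e-06). Gpr31b, whose product is a receptor for lactate and pyruvate in mouse gut phagocytes, averaged 0.302 CPM in KO and 1.49 CPM in WT CD4+ cDC2 (-2.33 ± 0.86, adjusted p = 0.0459). That call was lost when any of 5 of the 6 libraries was left out, every one but KO library 3, with the highest adjusted p at 0.137. Without KO library 2 the value was -1.72 and without KO library 3 -3.09. The pseudogene Gpr31a had no count in the 3 KO CD4-CD8- libraries and 16 counts in WT, which makes it at least 5.01-fold lower in KO against a floor of 3 counts over the group (adjusted p = 0.0295). With 1 library left out the bound lay between 2.24 and 7.37, and the lowest came without WT library 2, which left 5 counts in WT. This call ended without WT library 2 (adjusted p = 0.117) or without any 1 of the 3 KO libraries (adjusted p from 0.0681 to 0.0754). The transcripts of Gpr31a and Gpr31b are 99.0% identical over 956 aligned bases, so the counting could have split reads between them and their separate values are uncertain. Gpr31c was not aligned with either, so whether its counts share reads with theirs is not known.

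Gpr84, the receptor for medium-chain fatty acids that inflammation induces in myeloid cells, had 43 counts in KO and 2 counts in WT CD4+ cDC2. The ratio of scaled counts was 22.2, with an exact 95% interval of 5.79 to 189 that covers counting error only (log2 4.19 ± 0.91, adjusted p = 0.00168, and 3.60 without WT library 2, where the ratio was 13.7). In CD4-CD8- cDC2 it averaged 1.68 CPM in KO and 0.546 CPM in WT, a difference that did not pass (adjusted p = 0.0749). Of its exon bases, 39.5% are shared with the antisense gene Gm49482. Most macrophage markers were higher in KO CD4+ cDC2 as well. The 12 red pulp macrophage markers summed to 1351 to 1585 CPM in KO and 635.9 to 723.0 CPM in WT CD4+ cDC2, with 9 higher and 1 lower. Axl averaged 294.5 CPM in KO and 39.0 CPM in WT, and Mrc1 160.2 and 4.44 CPM. The means of Spic (5.50 CPM in KO, 13.4 CPM in WT) and Adgre1 (368.3 and 466.7 CPM) ran the other way. The 5 marginal zone macrophage markers summed to 1063 to 1294 CPM in KO and 227.7 to 304.3 CPM in WT, with 3 higher and 0 lower. Cd209a, which is also on the cDC2 list, made up most of that sum, with means of 1121 CPM in KO and 229.9 CPM in WT. Marco averaged 1.47 CPM in KO and 0.489 CPM in WT, Siglec1 6.71 and 1.03 CPM, Nr1h3 34.3 and 16.8 CPM, and Cd209b 8.46 and 8.74 CPM. In CD4-CD8- cDC2 the marginal zone sums were 1229 to 1515 CPM in KO and 375.0 to 509.6 CPM in WT. The red pulp sums there were 662.4 to 816.1 CPM in KO and 347.6 to 462.3 CPM in WT, with 4 higher and 1 lower. No marker of either macrophage list was without counts in a group. Of 11 monocyte markers, 5 were higher and 2 lower in KO CD4+ cDC2, and 4 higher and 2 lower in KO CD4-CD8- cDC2. In CD4+ cDC2, Ccr2 averaged 930.7 CPM in KO and 74.2 CPM in WT, and F13a1 33.2 and 0.413 CPM. The means of Nr4a1 (1071 CPM in KO, 1714 CPM in WT), Ace (16.8 and 51.2 CPM) and Fcgr4 (10.0 and 19.5 CPM) ran the other way. The part of macrophages and monocytes in the rises of Gpr84, Gpr146 and Gpr162 was not tested.

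Gpr141b and Gpr141 lie next to each other on the minus strand of chromosome 13, 16730 bases apart. Gpr141 (chr13:19749682-19824257) is an orphan receptor, and Gpr141b (chr13:19727426-19732951) is annotated as a lincRNA. The best-scoring local alignment between the longest transcript of each covers 90 bases at 73.3% identity. Gpr141b was higher in both KO cDC2 populations, and Gpr141 lower. Gpr141b had 1.99, 5.35 and 4.95 CPM in KO CD4+ cDC2, against 0.484, 0.457 and 0.601 CPM in WT. CD4-CD8- cDC2 held 51.0, 97.0 and 59.7 CPM in KO and 36.5, 25.6 and 44.2 CPM in WT. In CD8+ cDC1 it had 544.0, 575.2 and 651.0 CPM in KO and 448.5, 472.2 and 499.2 CPM in WT. KO libraries were above WT libraries in all 3 populations. The log2 fold change was 2.98 ± 0.48 (adjusted p = 0.000123), 0.96 ± 0.25 (adjusted p = 0.00864) and 0.32 ± 0.24 (adjusted p = 0.429). The CD4-CD8- call ended without WT library 2 (0.75, adjusted p = 0.0547), without KO library 2 (0.64, adjusted p = 0.0663) and on log2(TPM + 1) (0.64, adjusted p = 0.0503).

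Gpr141 had 57.0, 30.1 and 42.9 CPM in KO CD4+ cDC2, against 108.7, 125.7 and 140.4 CPM in WT. The CD4-CD8- cDC2 libraries held 73.1, 54.8 and 55.1 CPM in KO and 81.5, 103.5 and 108.0 CPM in WT. Those of CD8+ cDC1 held 29.2, 30.7 and 32.5 CPM in KO and 27.0, 31.3 and 30.1 CPM in WT. KO lay below WT in both cDC2 populations and overlapped it in CD8+ cDC1. The falls were -1.53 ± 0.18 (adjusted p = 4.88e-06) and -0.68 ± 0.18 (adjusted p = 0.00963), and the CD8+ value was 0.06 ± 0.19 (adjusted p = 0.882). The CD4+ effect differed from the CD8+ effect by -1.59 ± 0.26 for Gpr141 (adjusted p = 0.000278) and by 2.66 ± 0.55 for Gpr141b (adjusted p = 0.00203).

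Since Gpr141b is highest in CD8+ cDC1, its level in the cDC2 sorts was set beside cDC1 markers. In CD4-CD8- cDC2 it stood at 11.7% of its CD8+ level in KO and 7.49% in WT. The same shares were 9.18% in KO and 5.27% in WT for Xcr1, 11.6% and 7.29% for Gcsam, 11.4% and 10.2% for Tlr3, 19.1% and 14.4% for Clec9a, and 0.841% and 0.556% for Cd8a. In CD4+ cDC2 the shares were 0.694% in KO and 0.108% in WT for Gpr141b, 0.550% and 0.0703% for Gcsam, 0.6% and 0.459% for Xcr1, 8.33% and 5.71% for Clec9a and 0.317% and 0.168% for Cd8a. The share of Tlr3 ran the other way there, at 1.31% in KO and 2.25% in WT. Shares were not taken for the rest of the list. Of these genes, Irf8, Cadm1 and Itgae had higher means in KO of both cDC2 populations, and Batf3 and Wdfy4 lower ones. Batf3 averaged 46.8 CPM in KO and 57.6 CPM in WT CD4+ cDC2, and 40.6 and 46.8 CPM in KO and WT CD4-CD8- cDC2. Wdfy4 averaged 746.9 CPM in KO and 1034 CPM in WT CD4-CD8- cDC2. Over the list of 10 cDC1 markers, 6 were higher and 1 lower in KO CD4-CD8- cDC2, with sums of 1523 to 2157 CPM in KO and 1593 to 1897 CPM in WT. In CD4+ cDC2, 5 were higher and 1 lower, with sums of 725.9 to 845.7 CPM in KO and 1309 to 1644 CPM in WT. Wdfy4 made up most of the WT sum, with means of 338.4 CPM in KO and 1168 CPM in WT CD4+ cDC2. No cDC1 marker was without counts in a group, and the part of cDC1 in the values of Gpr141b was not tested.

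Gpr33 and Gpr171 were also highest in CD8+ cDC1 and passed no KO against WT test. Gpr33, a chemoattractant-receptor relative that is a pseudogene in most humans, averaged 15.3 CPM in KO and 12.8 CPM in WT CD8+ cDC1, 1.53 and 0.863 CPM in KO and WT CD4-CD8- cDC2, and 0.248 and 0.0424 CPM in KO and WT CD4+ cDC2. Gpr171, a receptor for the neuropeptide BigLEN, averaged 91.4 CPM in KO and 107.9 CPM in WT CD8+ cDC1. It averaged 23.1 CPM in KO and 26.8 CPM in WT CD4-CD8- cDC2, and 15.1 CPM in KO and 15.2 CPM in WT CD4+ cDC2. Its log2 differences lay between -0.24 and -0.01. Gpr171 lies inside Med12l on the opposite strand and shares no exon bases with it.

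**Figure D3:**
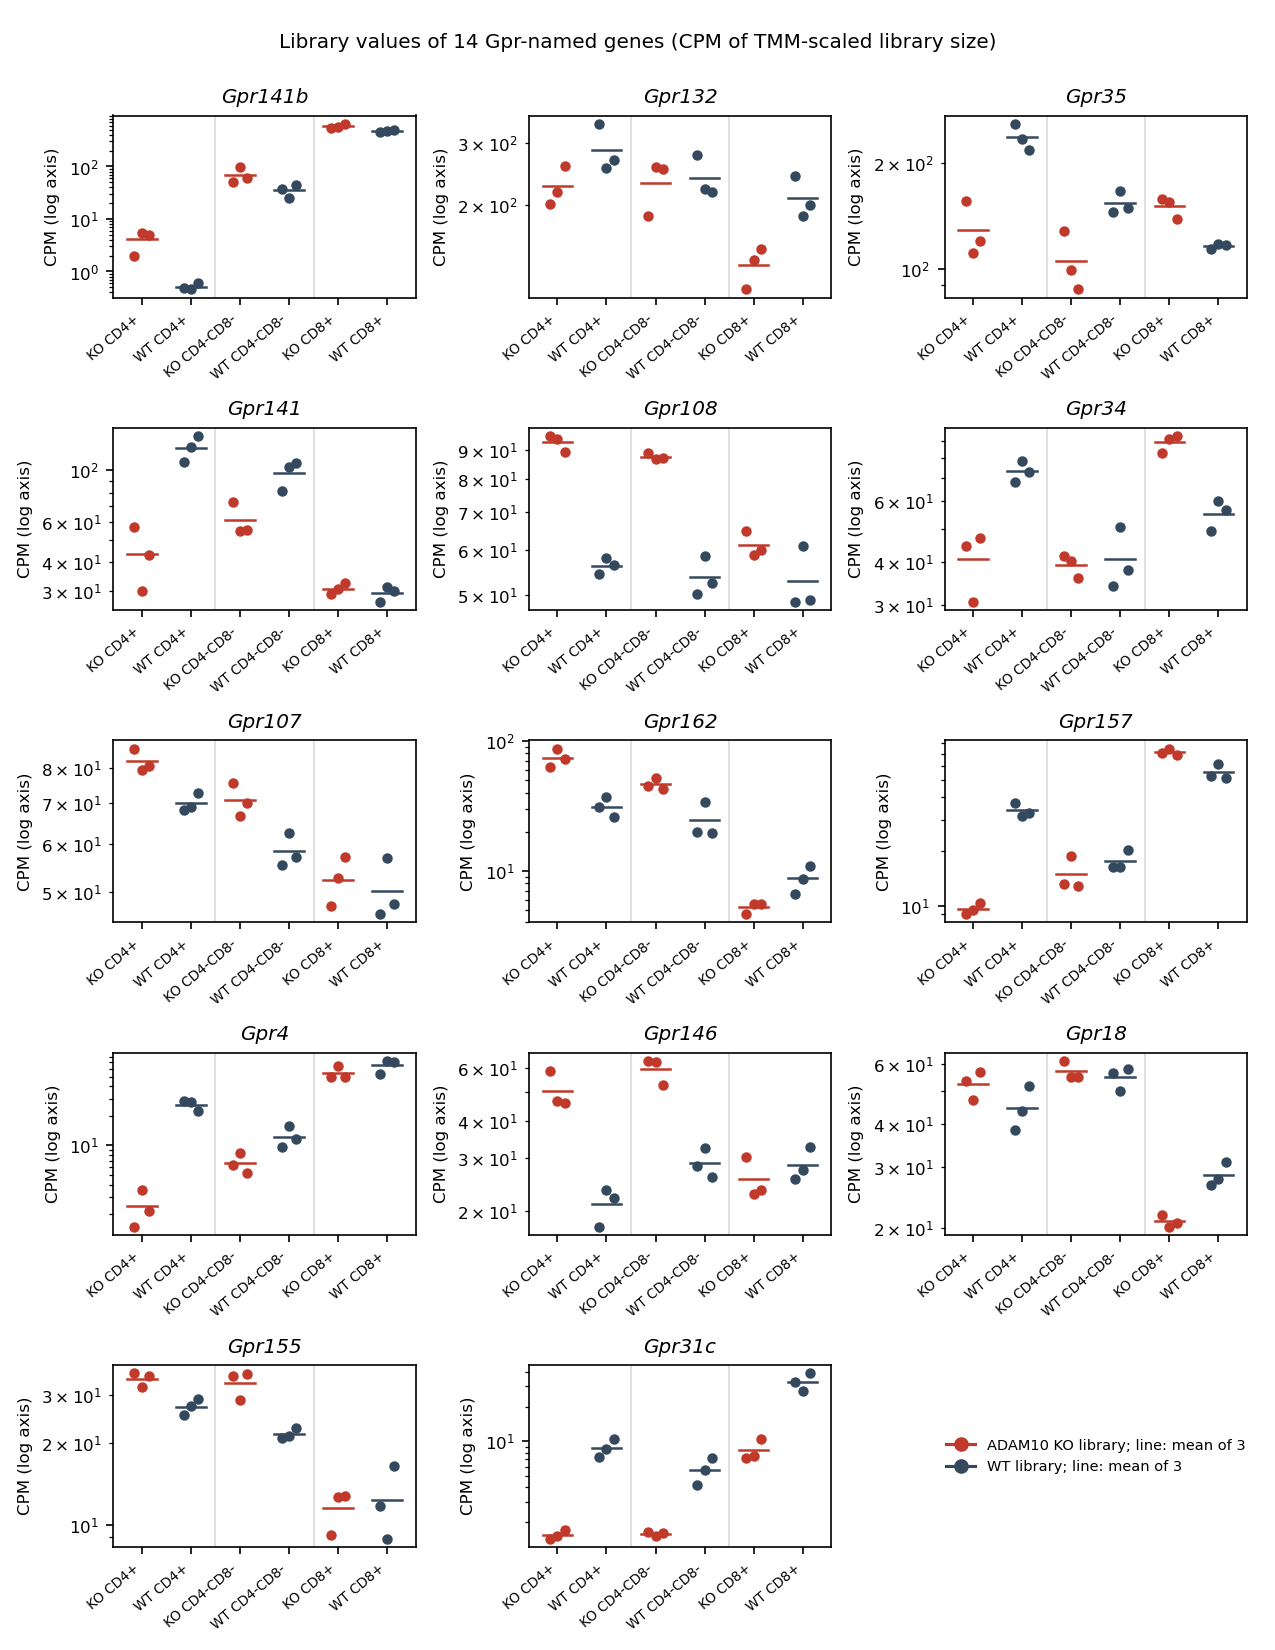
CPM of each library on a log axis, with a line at the mean of 3, for the 14 members with the highest group mean among those that reached 5 CPM and passed a KO against WT test or a test of the knockout effect between populations. KO is in red to the left of WT in grey-blue. Gpr31c is lower in KO in all 3 populations, Gpr34 is lower in KO CD4+ cDC2 and higher in KO CD8+ cDC1, and Gpr4 drops to between 1.49 and 3.53 CPM in KO CD4+ cDC2.

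Several Gpr names belong to proteins of internal membranes. Gpr108 (chr17:57234635-57248446), a Golgi protein, was higher in both KO cDC2 populations. It had 95.03, 94.1 and 89.0 CPM in KO CD4+ cDC2, against 54.4, 58.0 and 56.4 CPM in WT. CD4-CD8- cDC2 gave 88.7, 86.6 and 87.1 CPM in KO and 50.2, 58.4 and 52.4 CPM in WT, and CD8+ cDC1 gave 64.8, 58.8 and 59.9 CPM in KO and 48.6, 61.1 and 48.9 CPM in WT. The groups were apart in cDC2 and overlapped in cDC1. The rises were 0.72 ± 0.08 (adjusted p = 3.46e-06) and 0.71 ± 0.08 (adjusted p = 1.18e-05), and the CD8+ value was 0.21 ± 0.08 (adjusted p = 0.105). The CD4+ effect was above the CD8+ effect by 0.51 ± 0.12 (adjusted p = 0.00454).

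Gpr107 (chr2:31152316-31218775), its Golgi relative, had 86.1, 79.4 and 80.5 CPM in KO CD4+ cDC2, against 68.2, 69.0 and 72.7 CPM in WT. CD4-CD8- cDC2 gave 75.7, 66.8 and 70.1 CPM in KO and 55.3, 62.5 and 57.0 CPM in WT. In CD8+ cDC1 it had 47.3, 52.6 and 57.0 CPM in KO and 46.0, 56.9 and 47.8 CPM in WT. KO and WT were apart in both cDC2 populations, and the log2 fold change was 0.23 ± 0.09 (adjusted p = 0.0508) in CD4+ and 0.28 ± 0.09 (adjusted p = 0.0243) in CD4-CD8- cDC2. On either TPM scale the CD4-CD8- value was -0.07, where the median gene stood at -0.18 with a pseudocount of 1 and at -0.25 with 0.1. The count-based call ended without WT library 1 (adjusted p = 0.135), WT library 3 (0.119), KO library 1 (0.101) or KO library 3 (0.0523). The sign of Gpr107 thus differs between the scales, although on both it stood above the median gene. Neither TPM fit called it (adjusted p = 0.721 and 0.725 in limma).

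Gpr155 (chr2:73341506-73386572), a lysosomal cholesterol sensor that acts on mTORC1, had 36.2, 32.3 and 35.4 CPM in KO CD4+ cDC2, against 25.3, 27.4 and 29.1 CPM in WT. It had 35.3, 28.8 and 35.9 CPM in KO and 20.9, 21.2 and 22.7 CPM in WT CD4-CD8- cDC2. In CD8+ cDC1 it had 9.19, 12.6 and 12.7 CPM in KO and 11.8, 8.88 and 16.5 CPM in WT. KO libraries were all above WT in both cDC2 populations. The difference passed in CD4-CD8- cDC2 (0.63 ± 0.17, adjusted p = 0.00991) and not in CD4+ cDC2 (0.34 ± 0.16, adjusted p = 0.117). On log2(TPM + 1) the CD4-CD8- value was 0.09 with an adjusted p of 0.771.

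Gpr137, a lysosomal membrane protein, had 24.8 to 31.3 CPM in KO and 19.1 to 22.4 CPM in WT CD4+ cDC2, 21.1 to 22.9 CPM in KO and 16.3 to 18.6 CPM in WT CD4-CD8- cDC2, and 18.5 to 21.3 CPM in KO and 15.6 to 23.3 CPM in WT CD8+ cDC1. It passed in CD4+ cDC2 (0.44 ± 0.13, adjusted p = 0.0125), but not without WT library 3 (0.38, adjusted p = 0.0642), without KO library 2 (0.37, adjusted p = 0.061) or on log2(TPM + 1) (0.08, adjusted p = 0.808), and 15.4% of its exon bases are shared with Bad. Gpr89, a Golgi channel that sets luminal pH, had 17.7 to 20.1 CPM in KO and 14.8 to 15.7 CPM in WT CD4+ cDC2. Its other KO and WT ranges were 18.3 to 20.6 and 15.2 to 17.6 CPM in CD4-CD8- cDC2, and 18.1 to 22.0 and 16.8 to 21.8 CPM in CD8+ cDC1. Gpr89 passed in CD4+ cDC2 (0.32 ± 0.11, adjusted p = 0.0322), a call lost without any of 5 of the 6 libraries, every one but KO library 2, with values from 0.28 to 0.34. Of its exon bases 24.8% are shared with Pdzk1.

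Gpr137b and Gpr180 passed no test of KO against WT. Gpr137b, a lysosomal relative of Gpr137, averaged 23.6 CPM in KO and 29.7 CPM in WT CD4+ cDC2, 25.5 and 28.6 CPM in KO and WT CD4-CD8- cDC2, and 37.7 and 41.0 CPM in KO and WT CD8+ cDC1. Gpr180, a protein of TGF-beta signalling, averaged 14.7 CPM in KO and 13.9 CPM in WT CD4+ cDC2, 14.8 and 12.5 CPM in KO and WT CD4-CD8- cDC2, and 14.8 and 11.6 CPM in KO and WT CD8+ cDC1. Its largest log2 difference was 0.35 ± 0.12 in CD8+ cDC1 (adjusted p = 0.0664).

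Of the remaining receptors at 5 CPM or more, Gpr146 and Gpr162 were higher and Gpr157 and Gpr161 lower in KO CD4+ cDC2. Gpr146 (chr5:139377697-139396415), which in mouse liver acts on cholesterol output, had 58.6, 46.6 and 45.9 CPM in KO CD4+ cDC2, against 17.8, 23.6 and 22.1 CPM in WT. CD4-CD8- cDC2 gave 63.4, 63.1 and 52.6 CPM in KO and 28.4, 32.5 and 26.1 CPM in WT, and CD8+ cDC1 gave 30.3, 22.8 and 23.5 CPM in KO and 25.6, 27.4 and 32.8 CPM in WT. KO stood above WT in the cDC2 populations and overlapped it in CD8+ cDC1. On the log2 scale KO differed from WT by 1.25 ± 0.15 (adjusted p = 3.96e-06), 1.04 ± 0.14 (adjusted p = 5.43e-05) and -0.16 ± 0.15 (adjusted p = 0.522). The CD4+ and the CD4-CD8- effects were above the CD8+ effect by 1.41 ± 0.21 (adjusted p = 9.89e-05) and 1.21 ± 0.21 (adjusted p = 0.00089).

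Gpr162 (chr6:124858444-124863983), an orphan receptor, had 62.9, 87.3 and 73.0 CPM in KO CD4+ cDC2, against 30.8, 36.8 and 25.8 CPM in WT. The CD4-CD8- values were 45.0, 51.4 and 42.5 CPM in KO and 19.9, 34.1 and 19.4 CPM in WT, and those of CD8+ cDC1 were 4.63, 5.58 and 5.59 CPM in KO and 6.61, 8.66 and 11.0 CPM in WT. KO libraries were above WT in cDC2 and below WT in cDC1. The log2 fold change was 1.25 ± 0.20 (adjusted p = 0.000125), 0.92 ± 0.21 (adjusted p = 0.00317) and -0.73 ± 0.25 (adjusted p = 0.0583). The CD4+ effect was above the CD8+ effect by 1.98 ± 0.32 (adjusted p = 0.00025), and the CD4-CD8- effect by 1.65 ± 0.32 (adjusted p = 0.00257).

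Gpr157 (chr4:150087365-150105927), an orphan receptor, was lower in KO CD4+ cDC2 alone among the KO against WT tests. It had 8.96, 9.39 and 10.3 CPM there in KO, against 37.2, 31.6 and 32.8 CPM in WT. The CD4-CD8- libraries had 13.1, 18.9 and 12.8 CPM in KO and 16.4, 16.4 and 20.3 CPM in WT, and the CD8+ cDC1 libraries 71.1, 74.8 and 69.3 CPM in KO and 53.0, 61.4 and 51.3 CPM in WT. KO was below WT in CD4+, overlapped it in CD4-CD8- and was above it in CD8+ cells. As log2 fold changes the differences were -1.83 ± 0.14 (adjusted p = 3.1e-08), -0.25 ± 0.14 (adjusted p = 0.205) and 0.38 ± 0.13 (adjusted p = 0.0512). The CD4+ effect differed from the CD8+ effect by -2.20 ± 0.19 (adjusted p = 4.08e-07) and from the CD4-CD8- effect by -1.58 ± 0.19 (adjusted p = 0.000182).

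Gpr161 (chr1:165295789-165326745), a receptor of the primary cilium that restrains Hedgehog signalling, had the largest fall by log2 fold change among the members called in KO CD4+ cDC2. It had 0 to 0.228 CPM in KO and 4.36 to 6.54 CPM in WT CD4+ cDC2, 0.0767 to 0.475 CPM in KO and 2.12 to 3.75 CPM in WT CD4-CD8- cDC2, and 0.130 to 0.349 CPM in KO and 0.482 to 1.21 CPM in WT CD8+ cDC1. The groups were apart in each. The log2 fold change was -5.62 ± 0.65 (adjusted p = 3.53e-06), -3.14 ± 0.56 (adjusted p = 0.000577) and -1.67 ± 0.64 (adjusted p = 0.0929), and the first was -7.08 without KO library 2. Gpr160, an orphan receptor, had 2.598 to 3.42 CPM in KO and 2.00 to 2.18 CPM in WT CD4+ cDC2, 6.05 to 6.91 CPM in KO and 5.26 to 8.58 CPM in WT CD4-CD8- cDC2, and 0.782 to 1.43 CPM in KO and 2.58 to 4.16 CPM in WT CD8+ cDC1. It was lower in KO CD8+ cDC1 by -1.70 ± 0.26 (adjusted p = 0.000223). The effect in CD4+ cDC2 was above that in CD8+ cDC1 by 2.26 ± 0.36 (adjusted p = 0.000195).

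The 13 members under 5 CPM in every group were Gpr15, Gpr19, Gpr25, Gpr31a, Gpr31b, Gpr45, Gpr83, Gpr84, Gpr85, Gpr135, Gpr137c, Gpr149 and Gpr176, and 8 of them passed a KO against WT test. Gpr25, known in T cells and now matched to the chemokine CXCL17, averaged 1.12 CPM in KO and 4.18 CPM in WT CD4+ cDC2 (-1.89 ± 0.53, adjusted p = 0.0117, and -2.98 without KO library 2). In CD4-CD8- cDC2 it averaged 0.201 CPM in KO and 3.86 CPM in WT (-4.17 ± 0.65, adjusted p = 0.000284), and 41.6% of its exon bases are shared with Gm26781. The T cell marker sums were 19.96 to 30.2 CPM in KO and 26.5 to 30.5 CPM in WT CD4+ cDC2. In CD4-CD8- cDC2 they were 19.3 to 68.3 CPM in KO and 197.0 to 399.3 CPM in WT. Cd5 made up most of the WT CD4+ sum, with means of 6.81 CPM in KO and 20.1 CPM in WT. Every other T cell marker had a higher mean in KO CD4+ cDC2, and 3 passed as higher. The part of T cells in the falls of Gpr25 was not tested. Gpr83, a receptor of regulatory T cells and brain, averaged 0.732 CPM in KO and 4.00 CPM in WT CD4+ cDC2 (-2.45 ± 0.50, adjusted p = 0.0013). In CD4-CD8- cDC2 it averaged 0.351 CPM in KO and 1.69 CPM in WT (-2.19 ± 0.55, adjusted p = 0.00811, and -2.82 without KO library 1). The part of T cells in the falls of Gpr83 was not tested either. Gpr85, a conserved orphan of the brain, rose to 1.46 CPM in KO, against 0.122 CPM in WT CD4+ cDC2 (3.54 ± 0.63, adjusted p = 0.000297), and to 2.06 CPM in KO, against 0.243 CPM in WT CD4-CD8- cDC2 (3.04 ± 0.58, adjusted p = 0.000897).

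The orphans Gpr45 and Gpr176 were called with less firm values. Gpr45 averaged 1.05 CPM in KO and 0.445 CPM in WT CD4+ cDC2 (1.23 ± 0.40, adjusted p = 0.0239). It no longer passed without WT library 2 or 3 or KO library 2, where the value was as low as 0.94 with an adjusted p of 0.134. Gpr176 averaged 0.400 CPM in KO and 1.63 CPM in WT CD8+ cDC1 (-2.0 ± 0.60, adjusted p = 0.0364), a call that no fit without 1 of the 6 libraries kept (adjusted p from 0.0856 to 0.11). Gpr19 and Gpr135 were tested and passed nowhere between KO and WT. Gpr19 averaged between 1.94 and 2.22 CPM in the 6 groups. Gpr135 averaged 1.55 CPM in KO and 0.895 CPM in WT CD8+ cDC1 and at most 0.502 CPM in cDC2. The untested Gpr15, Gpr137c and Gpr149 had group means of 0.613 CPM or less.

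Whether the knockout effect itself differed between populations was tested with interaction terms. The effect in CD4+ cDC2 was above that in CD8+ cDC1 for 9 of 36 members and below it for 8, with 22.1% of all genes called, 12.6% above and 9.54% below. Those above were Gpr18, Gpr45, Gpr85, Gpr108, Gpr141b, Gpr146, Gpr160, Gpr162 and Gpr174. Those below were Gpr4, Gpr34, Gpr35, Gpr55, Gpr82, Gpr141, Gpr157 and Gpr161. Of these 17, Gpr45 (1.96), Gpr55 (-2.18) and Gpr174 (2.88) lost the call without any of 11, 9 and 6 of the 12 libraries in turn, with adjusted p up to 0.176, 0.166 and 0.0766. Between CD4-CD8- cDC2 and CD8+ cDC1, 6 members were above and 4 below, with 13.2% of all genes called, 8.24% above and 4.92% below. Gpr18 (0.50), Gpr34 (-0.74) and Gpr157 (-0.63) lost this call without any of 8, 6 and 7 of the 12 libraries, and on a TPM scale Gpr18, Gpr34, Gpr35, Gpr85, Gpr108, Gpr157 and Gpr160 did. Between CD4+ and CD4-CD8- cDC2, 0 members were above and 3 below (Gpr4, Gpr34 and Gpr157), with 3.76% of all genes called, 2.48% above and 1.28% below. By unadjusted p under 0.05 in edgeR 4 members were above, and DESeq2 called 2. Gpr34 (-0.80, adjusted p = 0.0467) lost the call without any of 9 of the 12 libraries, with values from -0.86 to -0.63. The 2 contrasts against CD8+ cDC1 share its libraries.

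**Figure D4:**
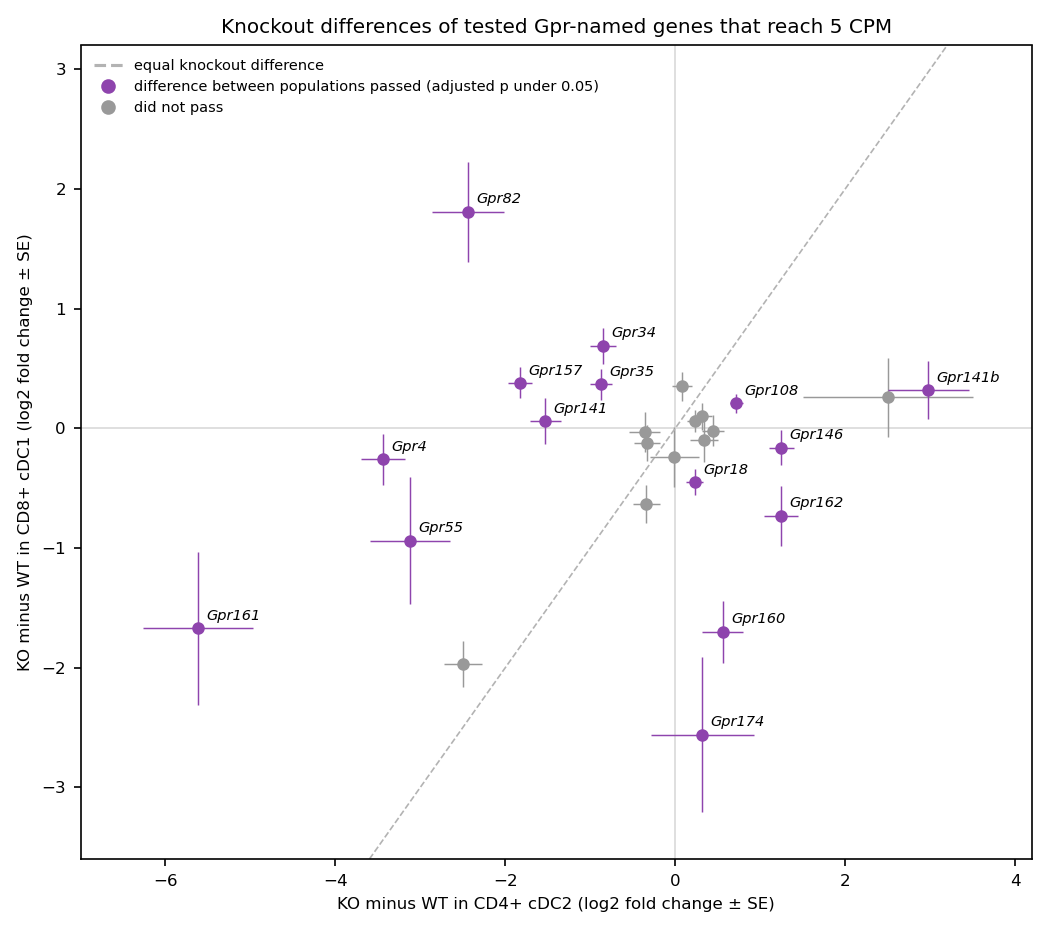
Knockout difference in CD4+ cDC2 (x axis) and in CD8+ cDC1 (y axis) as log2 fold change with SE bars, for the 26 members that reached 5 CPM, with the 15 whose difference between the populations passed in purple and named. Gpr82 and Gpr34 lie in the quadrant of a fall in CD4+ and a rise in CD8+ cells, and Gpr161 is below 0 on both axes.

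Populations of WT cells were compared next, as the background on which the knockout acted. Between CD4+ cDC2 and CD8+ cDC1, 13 members were higher and 14 lower in CD4+ cells, with 45.6% of all genes called, 22.6% higher and 23.0% lower. Gpr141b had the largest difference, -9.84 ± 0.40 on the log2 scale (adjusted p = 1.09e-11), while its neighbour Gpr141 was higher in CD4+ cDC2 by 2.08 ± 0.19 (adjusted p = 1.02e-07). Gpr33 had 2 counts in WT CD4+ cDC2 and 535 counts in WT CD8+ cDC1, a 329-fold lower level with an exact 95% interval of 90.5 to 2720 for counting error (fitted log2 -8.08, and -7.48 without WT CD4+ library 2). Gpr83 had 210 counts in WT CD4+ cDC2 and 2 counts in WT CD8+ cDC1, a ratio of 85.5 with an interval of 23.4 to 710 (fitted log2 6.17). The ratio was 56.8 or 58.4 without WT CD8+ library 2 or 3, and at least 37.2 against 3 counts without WT CD8+ library 1, where no count was left. Gpr176 had no count in WT CD4+ cDC2 and 68 counts in WT CD8+ cDC1, so it was at least 27.8-fold lower against 3 counts over the group, and at least 17.1-fold to 28.3-fold with 1 library left out. Gpr171 was lower by -2.84 ± 0.28 (adjusted p = 3.48e-07), Gpr4 by -1.33 ± 0.21 (adjusted p = 6.94e-05) and Gpr162 higher by 1.84 ± 0.22 (adjusted p = 3.73e-06).

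Between CD4-CD8- cDC2 and CD8+ cDC1 of WT mice, 12 members were higher and 10 lower, with 42.9% of all genes called, 21.9% higher and 21.0% lower. Gpr55 was higher in CD4-CD8- cDC2 by 3.77 ± 0.44 (adjusted p = 3.14e-06) and Gpr174 by 2.62 ± 0.52 (adjusted p = 0.000595). Gpr141b was lower by -3.74 ± 0.27 (adjusted p = 1.17e-08) and Gpr4 by -2.42 ± 0.22 (adjusted p = 2.28e-07). Between CD4+ and CD4-CD8- cDC2 of WT mice, 7 were higher (Gpr4, Gpr31c, Gpr34, Gpr35, Gpr82, Gpr107, Gpr157) and 7 lower (Gpr33, Gpr55, Gpr84, Gpr141b, Gpr146, Gpr160, Gpr174), with 16.7% of all genes called, 7.12% higher and 9.63% lower. Of these, Gpr31c, Gpr84, Gpr107 and Gpr146 lost the call without any of 4, 2, 5 and 4 of the 6 libraries in turn. Gpr174 was lower in CD4+ cDC2 by -4.07 ± 0.57 (adjusted p = 8.71e-05), and Gpr157 higher by 0.94 ± 0.13 (adjusted p = 9.69e-05). On log2(TPM + 0.1) the median gene was itself at 0.19 for CD4-CD8- against CD8+ and at -0.16 for CD4+ against CD4-CD8- WT cells. The comparisons of KO with WT and of WT populations share WT libraries, so their values stand side by side with no test of one against the other.

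Receptors act through G proteins and are switched off by RGS proteins, which speed GTP hydrolysis, and by GRK kinases with arrestins. Of 19 tested G protein subunit genes, 6 were higher and 3 lower in KO CD4+ cDC2, 4 and 1 in CD4-CD8- cDC2, and 3 and 1 in CD8+ cDC1. For this list and the 4 that follow, the shares of all genes called, in either direction, were 35.1% in CD4+ cDC2, 25.9% in CD4-CD8- cDC2 and 15.7% in CD8+ cDC1. The median log2 fold change of the G protein list was 0.24, 0.18 and 0.10 in that order of populations, against 0.02, 0.02 and 0.00 over all genes. Gnai2, the most abundant of those called, averaged 1268 ± 116 CPM in KO and 1063 ± 44.4 CPM in WT CD4+ cDC2 (SD, n = 3; log2 0.25 ± 0.08, adjusted p = 0.0146). Gnas was higher in KO CD4+ cDC2 by 0.29 ± 0.09 (adjusted p = 0.0213), and Gng10 lower by -0.60 ± 0.10 (adjusted p = 0.000277). Of 9 tested RGS genes, 2 were higher and 5 lower in KO CD4+ cDC2, 2 and 4 in CD4-CD8- cDC2, and 3 and 3 in CD8+ cDC1, with medians of -0.27, -0.85 and 0.16. Rgs1 averaged 53.5 ± 8.85 CPM in KO and 291.2 ± 48.1 CPM in WT CD4+ cDC2 (-2.45 ± 0.21, adjusted p = 1.33e-07) and was lower in KO CD8+ cDC1 too (-1.47 ± 0.21, adjusted p = 0.000141). Rgs2 fell in KO CD4+ cDC2 (-1.21 ± 0.11, adjusted p = 2.63e-07), and Rgs10 was higher there (0.36 ± 0.10, adjusted p = 0.0129).

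Among 8 tested GRK and arrestin genes, 2 were higher and 2 lower in KO CD4+ cDC2, 1 and 1 in CD4-CD8- cDC2, and 2 and 1 in CD8+ cDC1, with medians of -0.10, -0.17 and -0.06. Arrb1, which codes for beta-arrestin, averaged 125.6 ± 5.60 CPM in KO and 44.5 ± 3.09 CPM in WT CD4+ cDC2. Its log2 fold change was 1.5 ± 0.12 there, 1.09 ± 0.12 in CD4-CD8- cDC2 and 0.92 ± 0.12 in CD8+ cDC1, with adjusted p of 5.9e-08, 5.27e-06 and 3.92e-05. Grk2 fell in KO CD4+ cDC2 (-0.60 ± 0.07, adjusted p = 7.54e-06), as did Grk3 (-0.58 ± 0.13, adjusted p = 0.00222). Of 9 tested adhesion receptors that once had Gpr names, 1 was higher and 3 lower in KO cells of each population, with medians of 0.36, -0.34 and -0.63. Adgrg5 averaged 23.4 ± 9.45 CPM in KO and 141.3 ± 26.3 CPM in WT CD4+ cDC2 (-2.59 ± 0.24, adjusted p = 3.25e-07), Adgra2 was lower by -0.70 ± 0.11 (adjusted p = 9.51e-05) and Adgrg6 higher by 1.10 ± 0.14 (adjusted p = 1.39e-05). In KO CD8+ cDC1 the last pair had the opposite signs, 0.46 ± 0.11 for Adgra2 (adjusted p = 0.00749) and -0.63 ± 0.21 for Adgrg6 (adjusted p = 0.0471).

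Of 23 tested lipid and nucleotide receptors with other names, 10 were higher and 5 lower in KO CD4+ cDC2, 8 and 6 in CD4-CD8- cDC2, and 7 and 3 in CD8+ cDC1, with medians of 0.04, -0.03 and -0.10. Ffar2, the receptor for short-chain fatty acids, averaged 92.7 ± 53.2 CPM in KO and 434.1 ± 33.4 CPM in WT CD4+ cDC2 (-2.23 ± 0.40, adjusted p = 0.000359) and fell in CD8+ cDC1 as well (-2.70 ± 0.45, adjusted p = 0.000495). P2ry10, a lysophosphatidylserine receptor like Gpr34 and Gpr174, fell in KO CD4+ cDC2 (-1.29 ± 0.23, adjusted p = 0.000291). Ptafr, the receptor for platelet-activating factor, was higher in KO CD4+ cDC2 (0.81 ± 0.16, adjusted p = 0.00063) and lower in KO CD8+ cDC1 (-0.80 ± 0.16, adjusted p = 0.00236).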

How the data were processed

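RNA-seq of 18 libraries was analysed. Per the submitters' processing notes, FastQC 0.11.8 and Salmon 0.14.1 were used with GRCm38, and the annotation version and strand setting are not given in the sources used here. The authors deposited estimated counts per transcript and, in a separate table, TPM values per transcript with gene names. Estimated counts were summed to 24614 genes and rounded. Transcripts without a gene, at most 0.16% of a library's counts, were left out. Coordinates come from GENCODE M21, which held 98.8% of the transcripts.

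Genes passing edgeR's filterByExpr were scaled by TMM and tested over all 6 groups with edgeR's two-sided quasi-likelihood test (R 4.3.3, edgeR 4.0.16), with Benjamini-Hochberg adjustment over all genes and adjusted p under 0.05 as the call, and the fit was tested on simulated data. Log2 fold changes carry an approximate SE, taken as the absolute log2 fold change divided by the square root of that test's F statistic. It is thus not a separate estimate of the spread and is rough where counts are few. Alternatives were DESeq2 1.42.0, limma 3.58.1 on log2(TPM + 1) and log2(TPM + 0.1), DESeq2 size factors, no filter, only the compared groups, a replicate block and each library left out.

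The members and lists were chosen with earlier results of these data known. Of the 42 genes under the rule, 3 are not reported here and enter no count of members; they stay in the fit across all genes. Every member is named. All library values are given for the 14 with the highest group mean among those called at 5 CPM or more, ranges or means for the rest, and up to 3 called genes per pathway list. Whether each library came from its own animal is not given by the labels. The p-values rest on the spread among these libraries, and that spread may be technical.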

Additional observations from a re-analysis of the deposited data

Results flagged for a closer look

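A knockout effect that differed between populations by an interaction test was found 30 times, and each difference below is a log2 value with an adjusted p under 0.05 in edgeR's quasi-likelihood test. Groups of 3 libraries are too small to look for outlying libraries.

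Effects in CD4+ cDC2 were above those in CD8+ cDC1 by 0.51 for Gpr108, 0.68 for Gpr18, 1.41 for Gpr146, 1.96 for Gpr45, 1.98 for Gpr162, 2.26 for Gpr160, 2.66 for Gpr141b, 2.88 for Gpr174 and 3.87 for Gpr85. They were below by -1.25 for Gpr35, -1.54 for Gpr34, -1.59 for Gpr141, -2.18 for Gpr55, -2.20 for Gpr157, -3.19 for Gpr4, -3.95 for Gpr161 and -4.25 for Gpr82. Without KO CD4+ library 2 the Gpr161 value was -5.41, without KO CD4+ library 1 that of Gpr82 was -4.99, and without KO CD8+ library 3 that of Gpr174 was 4.03.

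Effects in CD4-CD8- cDC2 were above those in CD8+ cDC1 by 0.49 for Gpr108, 0.50 for Gpr18, 1.21 for Gpr146, 1.65 for Gpr162, 1.69 for Gpr160 and 3.37 for Gpr85, and below by -0.63 for Gpr157, -0.74 for Gpr34, -0.92 for Gpr35 and -2.74 for Gpr82. Without KO CD4-CD8- library 1 the Gpr82 value was -3.51. Effects in CD4+ cDC2 were below those in CD4-CD8- cDC2 by -0.80 for Gpr34, -1.58 for Gpr157 and -2.54 for Gpr4.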

How the results depend on the processing

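Of the KO against WT calls, 17 of 21 in CD4+, 11 of 17 in CD4-CD8- and 4 of 8 in CD8+ cells held under every alternative run. So did 12 of 17, 3 of 10 and 2 of 3 differences of the knockout effect (CD4+ against CD8+, CD4-CD8- against CD8+, CD4+ against CD4-CD8-) and 19 of 27, 17 of 22 and 8 of 14 WT differences in the same order. On a TPM scale the sign turned for Gpr107 in CD4-CD8- cDC2 (-0.07 at both pseudocounts) and, among uncalled differences of effect, for Gpr25 (-0.85 and -1.78), Gpr31c (0.62) and Gpr83 (-0.53 and -1.66, and -1.19 for CD4-CD8- against CD8+). The TPM tables gave 1 member higher in KO CD8+ cDC1 at each pseudocount, against 2, and log2(TPM + 0.1) gave 3 members above for CD4-CD8- against CD8+, against 6. All genes called there were 1167 and 971, against 1761, and for CD4+ against CD8+ 1630 and 1634, against 2962. For CD4+ against CD4-CD8-, 252 of all genes passed on log2(TPM + 0.1), against 503. Members above in that comparison were 2 with DESeq2, 2 with no filter, 1 on log2(TPM + 1) and 1 with the compared groups only, and that last fit gave 4 members higher in KO CD8+ cDC1. The cause was not tested.

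Leaving out 1 library at a time gave 2 to 4 members higher in KO CD8+ cDC1 and 2 to 5 below for CD4-CD8- against CD8+. For CD4+ against CD4-CD8- it gave 0 to 3 above, 2 to 5 below and 306 to 549 of all genes.

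With library number as a replicate block, 4971, 3808 and 2339 of all genes passed between KO and WT, 4 members were higher in KO CD8+ cDC1, and 850 genes, 2 members above and 5 below passed for CD4+ against CD4-CD8-. Deviations of same-numbered KO and WT libraries correlated between -0.038 and 0.138, so the numbers were not taken as pairs. Same-numbered libraries of different populations correlated between 0.052 and 0.247 in KO and between 0.037 and 0.175 in WT. In KO all 3 were above 0.1 for CD8+ with CD4-CD8- (0.202 to 0.247) and for CD8+ with CD4+ cells (0.134 to 0.159), but not in WT. With library number within genotype as the block, the Gpr45 difference of effect (CD4+ against CD8+) had an adjusted p of 0.0671 and the Gpr89 difference of WT CD4+ and CD8+ cells 0.0597, and both calls ended. Other members gained a call under it, among them Gpr55 and Gpr132 for the effect in CD4-CD8- against CD8+. Members near 0.5 CPM rest on few counts.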
